A study of Mus musculus with 8 samples.

Results

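The AP-2 transcription factor family has 5 members in the mouse, Tfap2a to Tfap2e. It was followed here through the 10 probe sets whose array annotation names 1 of these genes and no other, among 34945 probe sets that name a single gene and cover 18193 genes. Tfap2a and Tfap2c had 3 probe sets each, Tfap2b had 2, and Tfap2d and Tfap2e had 1 each, so that all 5 members were measured and none was removed by a filter on low values.

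RNA from 4 groups was hybridised to 8 Affymetrix mouse expression arrays, 2 per group: Tfap2c-/- PGCLCs, control PGCLCs, Tfap2c-/- ESCs and control ESCs. All cells carried the Blimp1mVenus transgene, in which regulatory sequence of Prdm1 (Blimp1) drives a fluorescent protein. The controls were the parental Tfap2c flox/flox lines, so their Tfap2c alleles held the loxP sites, and the Tfap2c-/- lines were made from them by transient transfection of a pGK-Cre plasmid. PGCLCs (primordial germ cell-like cells) came from ESCs by way of epiblast-like cells, were induced with BMP4, BMP8b, SCF, LIF and EGF, and were sorted for the reporter, so only cells with an active Prdm1 reporter entered the PGCLC arrays. The study used 2 pairs of ESC lines, but the labels do not tie array 1 or 2 of a group to a line, and a p-value therefore measures the spread between these samples.

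AP-2 proteins bind GC-rich DNA as dimers through a conserved region at the C-terminus and activate or repress transcription through an N-terminal region. In the mouse, Tfap2a is known for its roles in the neural crest and face, Tfap2b in the kidney and the sympathetic nervous system, and Tfap2c in the trophectoderm and in primordial germ cells, where it acts with Prdm1 and Prdm14. Because members recognise similar sites, the loss of Tfap2c raises the question whether a paralog is expressed in its place, and the values below give the level of each paralog with and without Tfap2c.

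All levels are log2 values as deposited, and a difference of 1 is a doubling of signal. Differences were tested with limma over all 18193 genes on 1 probe set per gene, that of highest mean level, and a gene was called at an adjusted p under 0.05. The array medians lay between 3.47 and 3.55. Control PGCLC 2 stood apart in its control probe sets, with a poly-A spike-in mean of 7.25, against 6.81 and 6.19 in the Tfap2c-/- PGCLCs and 5.05 to 5.48 on the other 5 arrays, and its Gapdh signal was 0.95 higher at the 3′ than at the 5′ end, against 0.31 to 0.52 elsewhere. In control PGCLCs against control ESCs, 8.37% of all genes were called, and 4 of 5 measured germ cell markers were called higher (Prdm1, on whose reporter the PGCLCs were sorted, Prdm14, Dppa3 and Dnd1). Of 8 trophoblast markers 0 were called, Elf5 and Tpbpa lay below the median of every array, and the differences ran from -0.37 to 1.86, the highest being that of Gata3. The mean level of the 8 was 3.52 to 3.97 in Tfap2c-/- PGCLCs and 3.899 to 4.17 in control PGCLCs, and 3.53 to 3.71 in Tfap2c-/- ESCs and 3.64 to 3.89 in control ESCs, and their part in the Tfap2c values was not tested.

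Tfap2c was the member with the largest differences between the groups. Its probe set of highest mean, 1436392_s_at, read 8.52 and 8.85 in Tfap2c-/- PGCLCs, against 9.84 and 10.29 in control PGCLCs. It read 7.28 and 6.47 in Tfap2c-/- ESCs, against 7.88 and 9.14 in control ESCs. In both cell types the values of the 2 genotypes did not overlap, but control ESC 2 lay 1.25 above control ESC 1, and the Tfap2c-/- PGCLCs read within the range of the control ESCs. The second probe set, 1418147_at, read 6.95 and 7.41 in Tfap2c-/- PGCLCs, against 8.52 and 9.03 in control PGCLCs, and among ESCs 5.51 and 5.08 in Tfap2c-/- cells, against 6.16 and 7.56 in controls. The third, 1448977_at, read 7.20 and 7.93 in Tfap2c-/- PGCLCs, against 8.69 and 9.20 in control PGCLCs, and among ESCs 6.27 and 5.05 in Tfap2c-/- cells, against 6.56 and 7.80 in controls. On all 3 probe sets both Tfap2c-/- arrays of a cell type lay below both of its controls, and all 24 Tfap2c values lay above the median of their array.

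**Figure D1:**
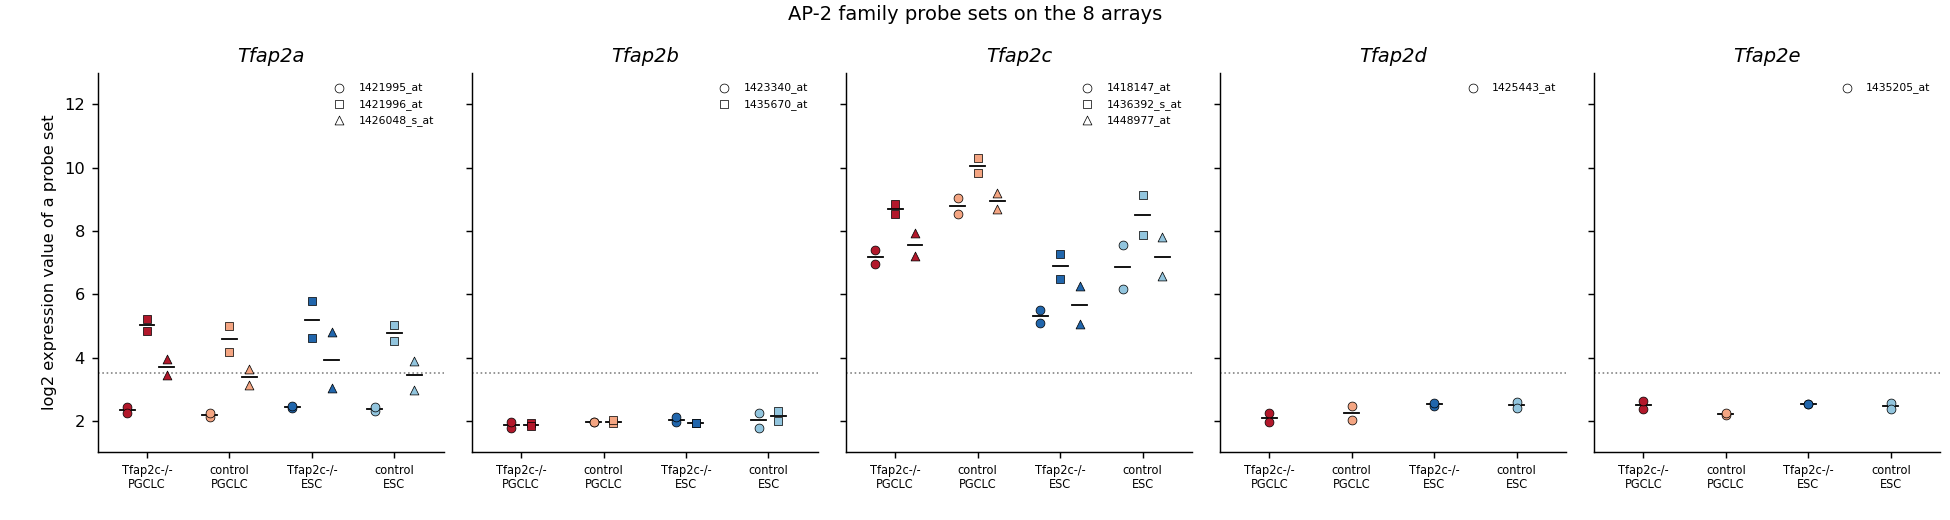
Log2 value of each AP-2 probe set on the 8 arrays. Each panel is a gene, each symbol shape a probe set, each point an array, the short black lines are group means (n = 2), and the dotted line is the median of all values (3.52). Tfap2c lies above that line on every array, Tfap2b, Tfap2d and Tfap2e lie below it on every array, and Tfap2a lies on both sides.

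Averaged, the probe set of highest mean was 8.68 ± 0.23 in Tfap2c-/- PGCLCs and 10.07 ± 0.32 in control PGCLCs (SD, n = 2 each), a log2 difference of -1.38 (SE 0.42, 95% confidence interval -2.36 to -0.40, adjusted p = 0.150, limma). The signal in Tfap2c-/- PGCLCs was thus 38.4% of that in control PGCLCs. In ESCs it was 6.88 ± 0.57 in Tfap2c-/- cells and 8.51 ± 0.89 in controls (SD, n = 2 each), a log2 difference of -1.63 (SE 0.42, 95% confidence interval -2.61 to -0.65, adjusted p = 1, limma), or 32.2% of the control signal. Neither difference passed the test over all genes, although both intervals lay below 0. The 3 probe sets together spanned differences of -1.60 to -1.38 among PGCLCs, and of -1.63 to -1.52 among ESCs. The knockout effect differed between the cell types by 0.25 (PGCLCs minus ESCs, 95% confidence interval -1.13 to 1.64, adjusted p = 0.949, limma), and this sign turned when Tfap2c-/- ESC 2 or control ESC 2 was left out (-0.15 and -0.38). Whether these probe sets lie inside the part of the gene removed by Cre is not given in the sources used here, so the arrays do not check the deletion itself. The study checked it by other means, genotyping the ESC lines by PCR and staining ESCs for TFAP2C protein. For its RT-PCR of PGCLCs the legend reports an absent signal in Tfap2c-/- cells, without naming the gene there.

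Between cell types Tfap2c was higher in PGCLCs in both genotypes. Tfap2c-/- PGCLCs exceeded Tfap2c-/- ESCs by 1.81 (95% confidence interval 0.83 to 2.79, adjusted p = 0.0749, limma), and control PGCLCs exceeded control ESCs by 1.55 (95% confidence interval 0.57 to 2.53, adjusted p = 0.0648, limma). The groups did not overlap in either comparison. In the fit of all probe sets, 1418147_at passed in the controls, with a difference of 1.92 (adjusted p = 0.0413, limma), and the other Tfap2c probe sets did not. On the probe set of highest mean, the difference in controls depended on the control ESCs, which lay apart. It was 2.18 without control ESC 2 and 0.93 without control ESC 1. The call of 1418147_at was not tested by leaving out arrays. In descending order of group mean Tfap2c stood at 10.07 in control PGCLCs, 8.68 in Tfap2c-/- PGCLCs, 8.51 in control ESCs and 6.88 in Tfap2c-/- ESCs. Tfap2c-/- PGCLCs and control ESCs, neighbours in this order, overlapped, and the differences between the other neighbours did not pass the test. In bulk RNA fewer cells with Tfap2c and less Tfap2c RNA per cell cannot be told apart.

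Tfap2a, the neural crest member, was the only paralog with values above the array medians. On its probe set of highest mean, 1421996_at, it read 5.21 and 4.85 in Tfap2c-/- PGCLCs, against 5.01 and 4.17 in control PGCLCs. It read 4.61 and 5.77 in Tfap2c-/- ESCs, against 5.02 and 4.52 in control ESCs. The genotypes overlapped in both cell types, and Tfap2c-/- ESC 2, the array with the lowest Tfap2c value, had the highest Tfap2a value. Tfap2c-/- ESC 1, with the next lowest Tfap2c value, lay between the control ESCs in Tfap2a. The second probe set, 1426048_s_at, read 3.95 and 3.45 in Tfap2c-/- PGCLCs, against 3.65 and 3.13 in control PGCLCs, and among ESCs 3.03 and 4.80 in Tfap2c-/- cells, against 3.89 and 2.98 in controls. Again the genotypes overlapped and Tfap2c-/- ESC 2 was highest. The third, 1421995_at, stayed between 2.11 and 2.45 on all 8 arrays, below every array median.

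The mean of Tfap2a was higher in the knockout of both cell types, by amounts within the spread between arrays. The log2 difference was 0.44 in PGCLCs (SE 0.43, 95% confidence interval -0.56 to 1.44, adjusted p = 0.721, limma) and 0.42 in ESCs (SE 0.43, 95% confidence interval -0.58 to 1.41, adjusted p = 1, limma). The upper ends of these intervals leave room for a rise of more than 1 on the log2 scale, which these arrays could not tell from no change. Without Tfap2c-/- ESC 2 the difference in ESCs was -0.17, so its sign rested on that array, and in PGCLCs it ran from 0.02 to 0.86 as each array was left out. The effects in the 2 cell types differed by 0.02 (95% confidence interval -1.39 to 1.43, adjusted p = 0.998, limma). The 7 neural crest markers had a mean level of 4.23 to 5.55 in Tfap2c-/- PGCLCs and 4.60 to 5.72 in control PGCLCs, and of 3.44 to 3.45 in Tfap2c-/- ESCs and 3.55 to 3.61 in control ESCs. In both PGCLC groups array 1 had the higher marker mean and also the higher Tfap2a value. When control PGCLCs were set against control ESCs, 2 of the 7 neural crest markers, Msx1 and Msx2, were called higher, beside 8.37% of all genes. The other 5 were not called, and the differences ran from -0.41 for Sox10 to 3.21 for Msx2. Pax3 read 3.68 and 3.77 in control PGCLCs, against 3.82 and 3.34 in control ESCs, so its groups overlapped. Tfap2a differed by -0.16 between Tfap2c-/- PGCLCs and Tfap2c-/- ESCs (adjusted p = 0.868, limma) and by -0.19 between control PGCLCs and control ESCs (adjusted p = 0.846, limma), and both signs turned when single arrays were left out. The part of these markers in the Tfap2a values was not tested.

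Tfap2b, Tfap2d and Tfap2e stayed low in every group. Their 4 probe sets gave 32 values between 1.78 and 2.62, all of them below the median of their array, and the deposited table holds no detection calls. Tfap2b, the kidney and sympathetic member, read 1.92 and 1.84 in Tfap2c-/- PGCLCs, against 1.92 and 2.01 in control PGCLCs, and among ESCs 1.94 and 1.94 in Tfap2c-/- cells, against 1.98 and 2.32 in controls (1435670_at). The second Tfap2b probe set, 1423340_at, held the same value, 1.95, on 4 of the 8 arrays and lay between 1.78 and 2.26 on the others. Such low and repeated values set a lower end below which a change would not show.

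Tfap2d, which is known from the mouse midbrain and retina, read 2.24 and 1.95 in Tfap2c-/- PGCLCs, against 2.47 and 2.01 in control PGCLCs, and among ESCs 2.47 and 2.57 in Tfap2c-/- cells, against 2.59 and 2.42 in controls. Genotypes overlapped in both cell types. Tfap2e, which is known from the olfactory bulb, read 2.38 and 2.62 in Tfap2c-/- PGCLCs, against 2.18 and 2.25 in control PGCLCs, and among ESCs 2.53 and 2.53 in Tfap2c-/- cells, against 2.56 and 2.38 in controls. In PGCLCs its genotypes did not overlap.

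In PGCLCs the knockout differences of these low members were -0.09 for Tfap2b (95% confidence interval -0.39 to 0.22), -0.15 for Tfap2d (-0.57 to 0.28) and 0.28 for Tfap2e (-0.03 to 0.60), with adjusted p of 0.844, 0.790 and 0.380 (limma). In ESCs they were -0.21 for Tfap2b (95% confidence interval -0.52 to 0.10), 0.02 for Tfap2d (-0.40 to 0.44) and 0.05 for Tfap2e (-0.26 to 0.37), each with an adjusted p of 1 (limma). At such low values these narrow intervals do not bound a change of the RNA. Between cell types Tfap2d was lower by 0.43 in Tfap2c-/- PGCLCs than in Tfap2c-/- ESCs (95% confidence interval -0.85 to -0.005, adjusted p = 0.265, limma), at values below the array medians.

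**Figure D2:**
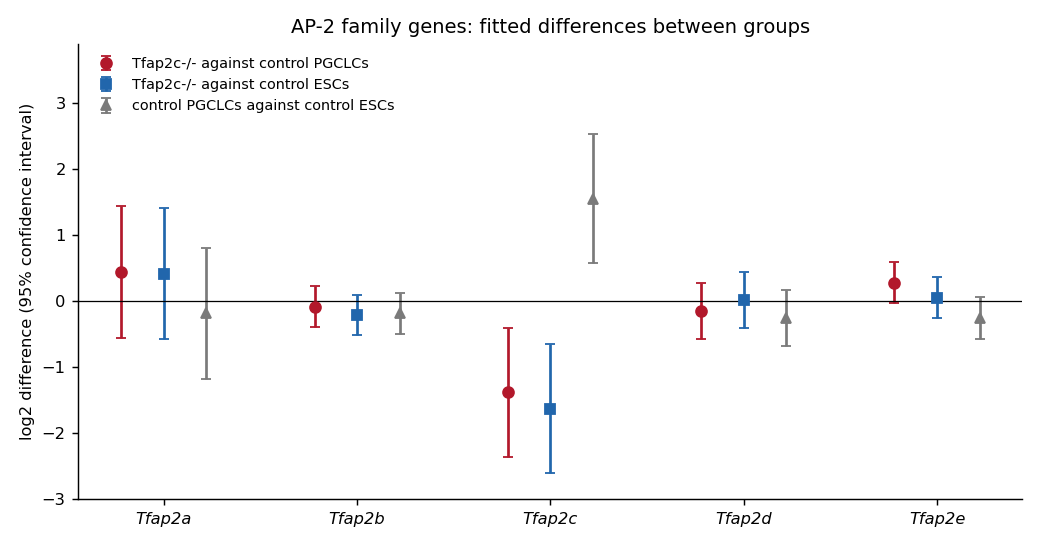
Fitted log2 differences of the 5 AP-2 genes with 95% confidence intervals, for Tfap2c-/- against control PGCLCs, Tfap2c-/- against control ESCs, and control PGCLCs against control ESCs (n = 2 arrays a group). The intervals of Tfap2c lie on 1 side of 0 in all 3 comparisons, and those of the other 4 genes include 0.

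Counted over the family, 0 of 5 genes were called in any of the 5 comparisons. The share of all genes called was 3.09% for Tfap2c-/- against control PGCLCs, 0.00% for Tfap2c-/- against control ESCs, 0.148% for the difference between these effects, 8.37% for control PGCLCs against control ESCs and 2.32% for Tfap2c-/- PGCLCs against Tfap2c-/- ESCs. In the ESC comparison 455 of the 18193 genes had an unadjusted p under 0.05 in limma, Tfap2c among them, and the smallest adjusted p was 0.263 (limma). Values of the 2 groups did not overlap for 2 of 5 family genes in Tfap2c-/- against control PGCLCs (Tfap2c and Tfap2e), against 47.5% of all genes, and for 2 of 5 in Tfap2c-/- against control ESCs (Tfap2b and Tfap2c), against 22.7%. The same held for 2 of 5 in control PGCLCs against control ESCs (Tfap2c and Tfap2e), against 53.8%, and for 3 of 5 in Tfap2c-/- PGCLCs against Tfap2c-/- ESCs (Tfap2b, Tfap2c and Tfap2d), against 48.0%. A difference above 1.5, the fold rule of the study, was reached by Tfap2c alone in the family. It passed in Tfap2c-/- against control ESCs (0.132% of all genes), in control PGCLCs against control ESCs (3.49%) and in Tfap2c-/- PGCLCs against Tfap2c-/- ESCs (2.18%), and not in Tfap2c-/- against control PGCLCs (1.95%), all on the probe set of highest mean. In that last comparison 1418147_at did reach it, with -1.60, and 1448977_at did not, with -1.38. These comparisons share arrays and are not independent of each other.

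Genes that followed Tfap2c most closely over the 8 arrays, among 1216 genes with a range above 2, were Dsp (Pearson r = 0.968), Gca (0.948), Homer2 (0.948), Tmem30b (0.941) and S100a6 (0.934). These correlations describe 8 arrays in 4 groups, so they carry the group differences as well as the spread within groups. Dsp, which encodes the desmosomal plaque protein desmoplakin, read 7.87 and 7.77 in Tfap2c-/- PGCLCs, against 9.06 and 9.61 in control PGCLCs, and among ESCs 5.88 and 4.35 in Tfap2c-/- cells, against 5.42 and 7.85 in controls. S100a6, which encodes a calcium-binding protein, read 5.73 and 4.82 in Tfap2c-/- PGCLCs, against 7.51 and 7.54 in control PGCLCs, and among ESCs 2.01 and 1.85 in Tfap2c-/- cells, against 2.11 and 4.98 in controls. In all 5 genes control ESC 2 was the highest ESC array and Tfap2c-/- ESC 2 the lowest, as in Tfap2c. Gca was called lower in Tfap2c-/- than in control PGCLCs (log2 difference -1.92, adjusted p = 0.0356, limma), beside 1.80% of all genes. The other 4 were not called in that comparison. The 5 genes were chosen for following Tfap2c on these same arrays, so lower values there are not independent evidence.

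**Figure D3:**
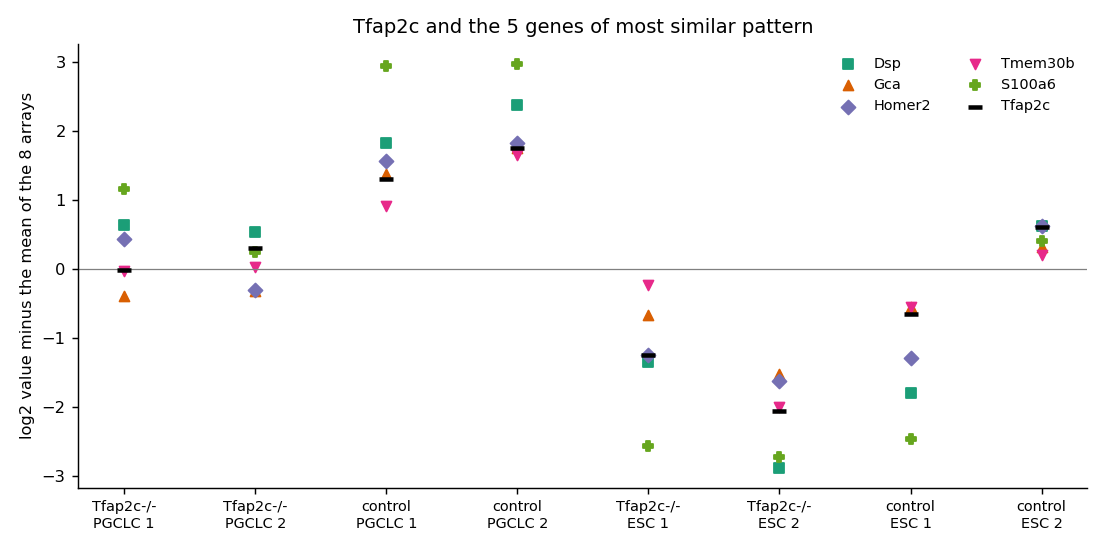
Tfap2c and the 5 genes of most similar pattern, as log2 value minus the gene's own mean over the 8 arrays, by array. All 6 genes are highest in the 2 control PGCLCs, and control ESC 2 lies above the other 3 ESC arrays for each of them.

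The AP-2 consensus is a palindrome in which GCC and GGC flank a short spacer. It was searched as GCCNNNGGC and GCCNNNNGGC, both of which read the same on either strand, in RefSeq promoter windows of 300 bases (250 before to 50 after the start, GRCm38.p6). GCCNNNGGC occurred in 16.6% of all windows and GCCNNNNGGC in 14.8%. Windows were found for 4 of the 5 family genes, all but Tfap2c, and the only match among them was a GCCNNNNGGC 167 bases before the upstream start of Tfap2a. The matches are shown for Tfap2a and for the called regulators and targets of AP-2 described next, because these are the promoters on which the values below bear. Capitals mark the match, 8 bases on each side are in lower case, and all are written 5′ to 3′ on the strand of the gene.
Tfap2a (chr13:40735078-40735087, minus strand): gtgagtaaGCCCCTGGGCggagtcag
Kctd15 (chr7:34655668-34655676, minus strand): gaaagcctGCCTTTGGCccgggagt
Kctd15, second window (chr7:34653152-34653160, minus strand): tcctgcagGCCCCTGGCactgctgc
Kctd15, second window (chr7:34653137-34653145, minus strand): gcactgctGCCTCGGGCaagcgccc
Kctd15, second window (chr7:34653124-34653132, minus strand): gggcaagcGCCCTGGGCgtaagagc
Kit (chr5:75574853-75574861, plus strand): gcccgagaGCCCCGGGCactaggca
Klf4 (chr4:55532476-55532484, minus strand): gcgcggcgGCCGCCGGCagttcccc
Klf4 (chr4:55532560-55532569, minus strand): ggggcgggGCCTGGCGGCggagcccc
Fgf4 (chr7:144861166-144861175, plus strand): agcagagaGCCAAGGGGCgggatcaa
Kctd15 had 3 windows, 1 of which held 3 matches to GCCNNNGGC within the 228 bases before the start. As many or more occurred in 0.444% of all windows, and in 0.511% of all genes when the window with the most matches was taken for each gene. A gene with several windows has more chances to reach this count. Cited2 had 1 window and no match, and Sfrp1 had no window in the table. A match is a description of the sequence, not a binding site.

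Among the regulators of AP-2 proteins, the inhibitor Kctd15 showed the largest knockout difference in PGCLCs. Kctd15 binds AP-2 alpha and blocks its activation domain in neural crest formation, as described in zebrafish. It read 5.41 and 4.84 in Tfap2c-/- PGCLCs, against 8.25 and 8.41 in control PGCLCs, and among ESCs 5.45 and 5.44 in Tfap2c-/- cells, against 5.96 and 6.61 in controls. Control PGCLCs stood above all other arrays, and the Tfap2c-/- PGCLCs read at or below the Tfap2c-/- ESCs. The log2 difference of Kctd15 in PGCLCs was -3.20 (SE 0.27, 95% confidence interval -3.82 to -2.58, adjusted p = 0.00230, limma), a signal of 10.9% of the control, and it kept its call whichever array was left out. In ESCs the difference was -0.84 (adjusted p = 1, limma), and the effects differed by -2.36 between the cell types (adjusted p = 0.0847, limma). Control PGCLCs exceeded control ESCs by 2.04 (adjusted p = 0.00605, limma), a difference of -0.32 in the knockout (adjusted p = 0.554, limma).

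Cited2, a coactivator that links AP-2 proteins to p300 and CBP, changed in the other direction. It read 9.07 and 9.16 in Tfap2c-/- PGCLCs, against 7.63 and 6.86 in control PGCLCs, and among ESCs 7.54 and 7.47 in Tfap2c-/- cells, against 7.47 and 6.86 in controls. Both Tfap2c-/- PGCLC arrays stood above the other 6. In PGCLCs it rose by 1.87 (SE 0.28, 95% confidence interval 1.22 to 2.52, adjusted p = 0.0169, limma), and its second probe set, 1421267_a_at, gave 1.57. The call was lost without control PGCLC 2, Tfap2c-/- PGCLC 1 or Tfap2c-/- PGCLC 2 (adjusted p from 0.0754 to 0.121, limma), with differences of 1.49 to 1.91. Cited2 was also called higher in Tfap2c-/- PGCLCs than in Tfap2c-/- ESCs (1.61, adjusted p = 0.0337, limma).

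The list of AP-2 regulators held 16 genes, of which 14 had a probe set naming only them. In Tfap2c-/- against control PGCLCs 1 was called higher and 1 lower, against 1.29% and 1.80% of all genes, and 12 were not called, with a median difference of -0.11 beside -0.04 over all genes. The related inhibitor Kctd1 differed by -0.27, the coactivators Ep300 and Crebbp by -0.03 and -0.15, and the nuclear AP-2 cofactor gene Yeats4 by -0.04, none of them called. In ESCs 0 of 14 were called, beside 0.00% of all genes (median -0.04 beside 0.00 over all genes), with differences from -0.84 to 0.34. Groups did not overlap for 7 of 14 in PGCLCs and 3 of 14 in ESCs, close to the shares of all genes given above.

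**Figure D4:**
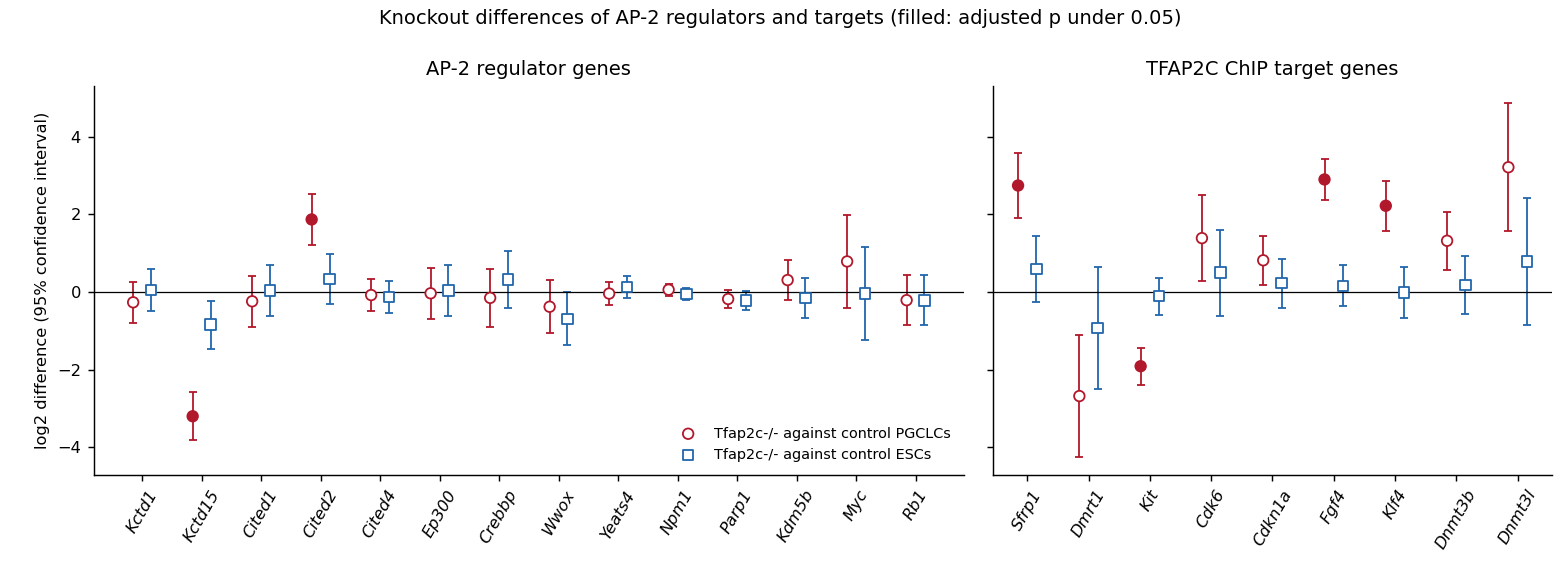
Log2 differences with 95% confidence intervals of 14 AP-2 regulator genes and 9 genes with TFAP2C ChIP, in Tfap2c-/- against control PGCLCs (circles) and ESCs (squares). Filled symbols have an adjusted p under 0.05 over all genes (limma). Kctd15 and Cited2 are filled on the left, and Sfrp1, Kit, Fgf4 and Klf4 on the right, all in PGCLCs.

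A list of 10 genes whose promoters were examined by TFAP2C ChIP was chosen by the study with these arrays in view, so its count is not independent evidence of a direction. Nanos3 was not measured. Of 9 measured, 3 were called higher in Tfap2c-/- PGCLCs (Fgf4, Sfrp1 and Klf4) and 1 lower (Kit), beside 1.29% and 1.80% of all genes. The other 5, Dmrt1, Cdk6, Cdkn1a, Dnmt3b and Dnmt3l, were not called. The median difference was 1.39 beside -0.04 over all genes. Dnmt3l had the largest difference, 3.22 (adjusted p = 0.0585, limma), and Dmrt1 differed by -2.68 (adjusted p = 0.0882, limma). Groups did not overlap for 9 of 9 in PGCLCs, beside 47.5% of all genes, and for 3 of 9 in ESCs, beside 22.7%. Fgf4, a growth factor of the pluripotent epiblast, read 8.78 and 9.41 in Tfap2c-/- PGCLCs, against 6.39 and 6.0 in control PGCLCs, and among ESCs 9.35 and 9.55 in Tfap2c-/- cells, against 9.21 and 9.37 in controls. The Tfap2c-/- PGCLCs thus read close to the ESCs and only the control PGCLCs stood apart, with a difference of 2.90 (SE 0.23, adjusted p = 0.00170, limma). The other Fgf4 probe sets gave differences from 0.38 to 2.94. Sfrp1, a secreted WNT antagonist, read 6.98 and 8.01 in Tfap2c-/- PGCLCs, against 4.58 and 4.92 in control PGCLCs, and among ESCs 7.59 and 8.31 in Tfap2c-/- cells, against 7.47 and 7.24 in controls. It differed by 2.75 in PGCLCs (SE 0.37, adjusted p = 0.0112, limma), and its other probe sets gave 0.83 to 3.13.

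Klf4, a transcription factor of naive pluripotency, read 8.52 and 9.48 in Tfap2c-/- PGCLCs, against 6.91 and 6.65 in control PGCLCs, and among ESCs 10.87 and 11.11 in Tfap2c-/- cells, against 11.03 and 10.98 in controls. It was higher by 2.22 in Tfap2c-/- PGCLCs than in controls (SE 0.28, adjusted p = 0.00944, limma) and was still called lower there than in Tfap2c-/- ESCs, by -1.99 (adjusted p = 0.0177, limma). Kit, the receptor for SCF on germ cells, read 6.84 and 6.94 in Tfap2c-/- PGCLCs, against 8.56 and 9.05 in control PGCLCs, and among ESCs 7.70 and 8.09 in Tfap2c-/- cells, against 7.94 and 8.07 in controls. Its log2 difference in PGCLCs was -1.91 (SE 0.20, adjusted p = 0.00513, limma), a signal of 26.6% of the control. The calls of Fgf4 and Kit held whichever array was left out. That of Sfrp1 was lost without control PGCLC 1, control PGCLC 2 or Tfap2c-/- PGCLC 2 (adjusted p from 0.0504 to 0.0735, limma), and that of Klf4 without control PGCLC 2 (adjusted p = 0.0858, limma).

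In ESCs 0 of 9 were called, beside 0.00% of all genes, with a median difference of 0.18 beside -0.001 over all genes. For the difference of the knockout effect 1, Fgf4, was called, beside 0.148% of all genes. The 5 germ cell markers, Kit among them, averaged 7.29 to 7.33 in Tfap2c-/- PGCLCs and 8.86 to 9.15 in control PGCLCs. Dppa3 and Kit were called lower and 3 were not called, beside 1.80% of all genes called lower. The 6 naive pluripotency markers averaged 9.01 to 9.39 in Tfap2c-/- PGCLCs and 7.99 to 8.55 in control PGCLCs. Of these Klf4 was called higher and 5 were not called, beside 1.29% of all genes called higher. The 4 primed epiblast markers averaged 6.25 to 6.54 in Tfap2c-/- PGCLCs and 5.35 to 5.60 in control PGCLCs. Of these Pou3f1 was called higher and 3 were not called, beside 1.29% of all genes called higher. The lowest difference was -0.21 for Fgf5, which read 4.38 and 3.09 in Tfap2c-/- PGCLCs, against 3.63 and 4.26 in control PGCLCs. The part of these marker differences in the differences of Kctd15, Cited2 and the ChIP targets was not tested.

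**Figure D5:**
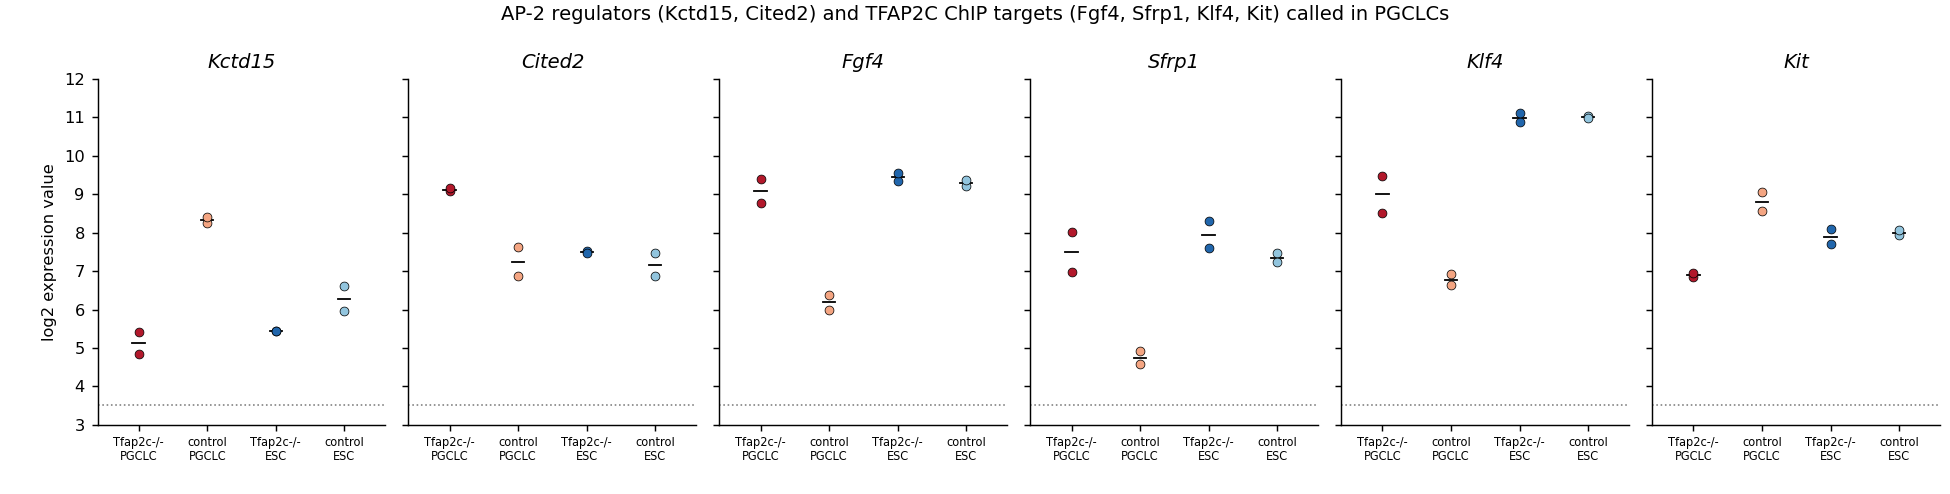
Log2 values on the 8 arrays of the 2 AP-2 regulators and 4 ChIP targets called in Tfap2c-/- against control PGCLCs. Points are arrays, short lines are group means (n = 2), and the dotted line is the median of all values (3.52). Kctd15 and Kit are lower in Tfap2c-/- than in control PGCLCs, and Cited2, Fgf4, Sfrp1 and Klf4 are higher.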

How the data were processed

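Each of the 8 arrays had 1 column of 45101 log2 values, deposited by the authors after normalization. RMA is named in the study's methods and GCRMA in the processing notes of the submitters (no version), and background correction, scaling and summary of probes were taken as made. Low values were repeated on several arrays, as on 1423340_at of Tfap2b, and differences between such values do not bound a change of the RNA. No further scaling was applied. In the array annotation 34945 probe sets named 1 gene, 932 named several and 9160 were not listed, and only the first were used for genes. Columns of other samples were 0.

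The 4 group means were fitted together in limma 3.58.1 (R 4.3.3; lmFit, then eBayes with a mean-variance trend, 4 residual and 3.67 prior degrees of freedom), without a replicate block. Tests were two-sided, with Benjamini-Hochberg adjustment of p over 18193 genes, or over 34945 probe sets where all probe sets were fitted. Precision is limited by 2 arrays a group. The fit was tested on simulated data. Promoter windows were the RefSeq sequences of GRCm38.p6, with windows for 4 of 5 family genes. Python 3.11.15, pandas 2.3.3, NumPy 2.4.6 and Matplotlib 3.10.9 were used for tables and plots.

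Named were all 5 members on every probe set, up to 4 called genes of each list by size of change, and the 5 genes with the highest Pearson correlation to a member whose group means span more than 1. Members, lists and tests were chosen with earlier results of these data known. Alternatives covered a replicate block, the choice of probe sets, dim genes, the trend, median centring, the arrays fitted, the fold rule and each array left out.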

Additional observations from a re-analysis of the deposited data

Results flagged for a closer look

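The knockout effect on Fgf4 differed between the cell types, by 2.74 on the log2 scale (PGCLCs minus ESCs, SE 0.32, 95% confidence interval 1.99 to 3.49, adjusted p = 0.0321, limma), and a test of that difference singled it out. Fgf4 differed by 2.90 between Tfap2c-/- and control PGCLCs and by 0.16 between Tfap2c-/- and control ESCs. Leaving out each of the 8 arrays gave 2.43 to 3.06, with adjusted p from 0.0415 to 0.161. With the mean of its 4 probe sets the difference was 1.70 (adjusted p = 0.117, limma).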

How the results depend on the processing

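Under the fold rule of the study (a difference above 1.5) 1 family gene, Tfap2c, was counted in place of 0 in Tfap2c-/- against control ESCs, in control PGCLCs against control ESCs and in Tfap2c-/- PGCLCs against Tfap2c-/- ESCs. With only the 4 arrays compared, 1 regulator was called in PGCLCs in place of 2 (Cited2 was lost, adjusted p = 0.0679, limma). The ChIP targets Sfrp1 and Klf4 also lost their calls (adjusted p = 0.0629 and 0.0725, limma). The number of ChIP targets called fell by less than these losses, so at least 1 other target gained a call. Averaging the probe sets of each gene left 0 ChIP targets in place of 1 called for the difference of the knockout effect (Fgf4 was lost). That averaging also turned the sign of Tfap2a in the difference of the knockout effect (-0.0092) and of Klf4 in ESCs (0.0145).

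Leaving out each array gave 0 to 1 family genes in control PGCLCs against control ESCs, 1 to 2 regulators and 2 to 5 ChIP targets in PGCLCs, and 0 to 2 ChIP targets for the difference of the knockout effect. Of the counts in PGCLCs, the lowest for ChIP targets, 2, came without control PGCLC 2, and 1 regulator remained without control PGCLC 2, Tfap2c-/- PGCLC 1 or Tfap2c-/- PGCLC 2. For the difference of the knockout effect the count was 0 without either ESC array of either genotype, without control PGCLC 2 or without Tfap2c-/- PGCLC 2. Tfap2c ranged from -0.38 to 0.88 in the difference of the knockout effect and from 0.93 to 2.18 in control PGCLCs against control ESCs. Other signs turned as follows, and the cause was not tested. Tfap2a ranged from -0.17 to 1.00 in ESCs, from -0.56 to 0.61 in the difference of the knockout effect, from -0.61 to 0.23 in control PGCLCs against control ESCs and from -0.75 to 0.42 in Tfap2c-/- PGCLCs against Tfap2c-/- ESCs. Tfap2b ranged from -0.0447 to 0.29 in the difference of the knockout effect. Tfap2d ranged from -0.38 to 0.0815 in PGCLCs, from -0.0679 to 0.11 in ESCs and from -0.40 to 0.0618 in the difference of the knockout effect. Tfap2e ranged from -0.039 to 0.14 in ESCs and from -0.15 to 0.0948 in Tfap2c-/- PGCLCs against Tfap2c-/- ESCs. In ESCs Klf4 ranged from -0.13 to 0.11 and Kit from -0.30 to 0.0854.

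The replicate numbers did not meet the rule for pairing: deviations of same-numbered arrays correlated at 0.39 between Tfap2c-/- and control PGCLCs and at -0.33 between Tfap2c-/- and control ESCs. With a replicate block 556 genes were called in PGCLCs, against 562 without it, 0 in ESCs, and 0 of 5 family genes in each. With the numbers of the control ESCs exchanged, a setting chosen after seeing the data, 0 genes were called in ESCs.

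Over all genes, 187 were called in PGCLCs with only the 4 arrays compared, in place of 562, and 87 without control PGCLC 2, 98 without Tfap2c-/- PGCLC 2, 230 without Tfap2c-/- PGCLC 1, 366 without control ESC 2 and 372 without control ESC 1. In control PGCLCs against control ESCs 1522 became 325 without control ESC 1, 390 without control PGCLC 2, 523 without control ESC 2 and 653 without control PGCLC 1. Leaving out each array gave 1 to 56 in place of 27 for the difference of the knockout effect. In Tfap2c-/- PGCLCs against Tfap2c-/- ESCs 422 became 56 with only the 4 arrays compared and 80 to 278 as each array was left out, lowest without Tfap2c-/- PGCLC 1.

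Low signal limits Tfap2b, Tfap2d, Tfap2e and 1 Tfap2a probe set, whose values lay below the array medians, so an RNA at the background of the array cannot be told from its absence.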
